A study of Arabidopsis thaliana with 6 samples.

Results

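Expansins are small secreted proteins that loosen the plant cell wall without cutting its polymers, so that a cell under turgor can enlarge. In Arabidopsis they form the alpha-expansins (EXPA), the beta-expansins (EXPB), which are related to grass pollen allergens, and the expansin-like families EXLA and EXLB, whose action on the wall is less well established. They are known from growing hypocotyls, leaves and roots, and EXPA7 and EXPA18 are known from root hair cells. The members were the probe sets that the platform annotation listed with a single gene whose symbol is EXPA, EXPB, EXLA or EXLB with a number. This gave 18 genes, each with 1 probe set, among 13356 genes with a probe set of their own: 10 EXPA, 4 EXPB, 3 EXLA and 1 EXLB.

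Transcript levels were measured with Affymetrix ATH1 arrays, on which a probe set gives 1 intensity in arbitrary units. All 6 arrays came from whole seedlings of accession Wassilevskija, 10 days old, sampled 22 h after a low-oxygen stress in which they had stood in air-purged water for 6 h. The wild type and the atr8 mutant had 3 arrays each, described by the series as biological replicates. AtR8 is a long non-coding RNA, and the series asks about its part in defence responses. The labels give neither the atr8 allele nor the number of mutant lines, and unstressed seedlings were not analysed here. No label says whether the replicates came from separate cultures, so p-values measure only the spread between these arrays, which may be technical.

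RefSeq (assembly TAIR10.1) names 38 loci as expansins, so the members are 18 of 38. A further 4 genes (EXPA22, EXPA23, EXPA25 and EXP26) share 2 probe sets, 1 locus (AT4G30380, with the synonym EXLB2) is listed without an expansin symbol, and the other 15 loci were not analysed here. In RefSeq order EXPA21, EXPA22, EXPA23, EXP26, EXPA25 and EXPA24 are successive protein-coding genes on chromosome 5, and EXLA3 and EXLA1 are neighbours on chromosome 3. All 18 member probe sets carry the suffix _at, which Affymetrix gives to probe sets designed for a single transcript. Of the members, 6 lay in the dimmest 30% of probe sets by mean intensity over all arrays: EXLA3, EXPA16, EXPA21, EXPA24, EXPB2 and EXPB5. The files hold no detection calls.

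The sampled tissue was checked on marker genes. Of 30 leaf mesophyll markers 5 were measured, among them RCA, the activase of Rubisco, and all 5 were bright. Here a gene counts as measured when the annotation used gives it a probe set of its own. Of 34 root hair and 21 other root markers 0 were measured, so the root part of the seedlings was not checked on markers. Genes known from roots or root hairs that are given below, EXPA7 and EXPA18 among them, were not used as markers. Mutant replicates 2 and 3 stood apart from the other arrays in control probe sets. The array carries 2 sets of actin controls, and the size of the 3′ to 5′ ratio differs between them. In the first set the 3′ probe set read 108.5 and 63.5 times the 5′ probe set on these arrays, against 11.5 to 16.8 times on the wild-type arrays and 15.5 on mutant replicate 1. In the second the ratios were 28.9 and 19.6, with 2.17 to 2.66 for the wild type and 2.13 for mutant replicate 1. The results below are therefore also given for mutant replicate 1 alone.

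Setting the atr8 mutant against the wild type asks whether expansin transcripts differ between the genotypes after the stress. Most of the brighter expansin genes had lower estimates in the mutant, led by EXPA4, EXPB3, EXPA15 and EXPB1, but none passed the test. Of the 12 members outside the dimmest 30%, 11 had lower estimates, with a median log2 difference of −0.86, where all probe sets outside the dimmest 30% had a median of −0.01 and 50.7% with lower estimates. Of the 6 dim members 5 had higher estimates. Over all 18 members 12 were lower and 6 higher, with a median of −0.48 against −0.01 over all probe sets tested. The size of the medians came mainly from mutant replicates 2 and 3. On replicate 1, 12 members were lower, where 51.6% of all probe sets tested were. On replicates 2 and 3 together 13 members were lower, where 49.2% of all probe sets were. The dim EXLA3, EXPA16, EXPA21 and EXPA24 differed more on replicate 1, as did the brighter EXLA2, which stood higher there. On mutant replicate 1 the median over the 18 members was −0.08 from the wild-type mean, and on replicates 2 and 3 together −0.80. Over all probe sets tested these medians were −0.02 and 0.01. For the 12 members outside the dimmest 30% these medians were −0.10 and −1.17.

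Intensities were compared as log2(intensity + 16) by limma across all probe sets, with Benjamini-Hochberg adjustment over all of them and a threshold of 0.05. A log2 difference on this scale is mutant minus wild type and understates the change of dim genes. By this test 0 of the 18 members were called, where 0.919% of all probe sets were. The smallest adjusted p among members was 0.133, that of EXPA15. At an unadjusted p under 0.05, 5 members were lower, where 6.92% of probe sets were, and 1 was higher, where 7.11% were. The 3 mutant arrays all lay below the 3 wild-type arrays for 6 members (EXPA4, EXPA7, EXPA15, EXPB1, EXPB3 and EXLA3), a pattern that 11.0% of all probe sets showed. They all lay above for 1 member, EXPA24, against 11.2% of probe sets.

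**Figure D1:**
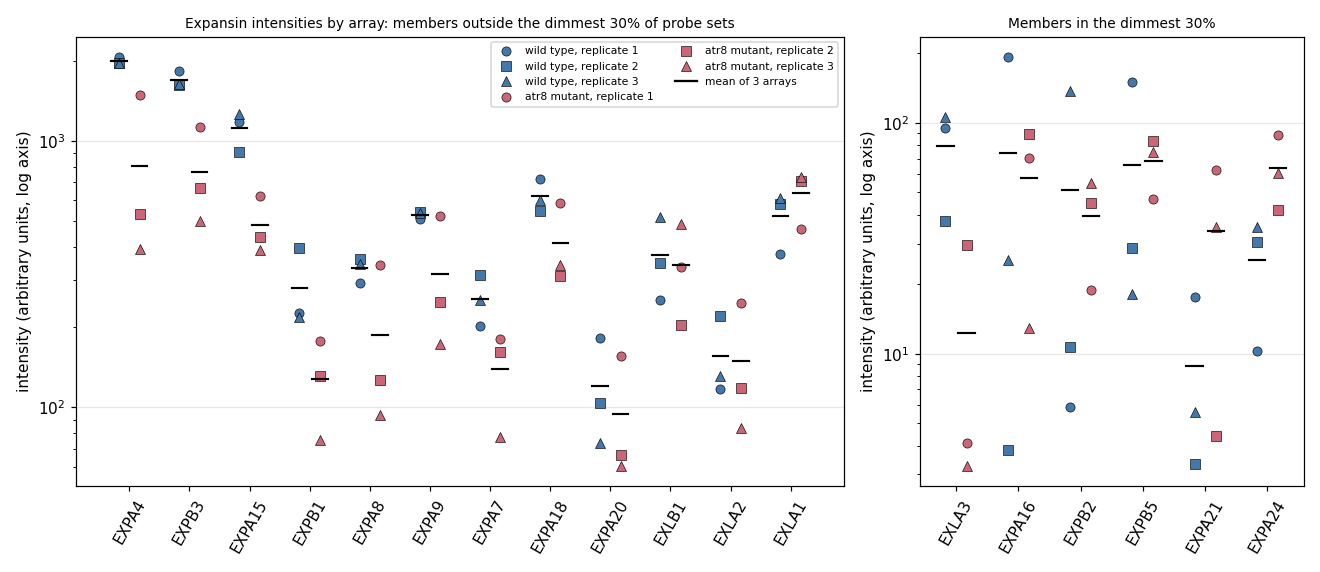
Intensity of each expansin probe set on every array, on a log axis in arbitrary units, ordered from the lowest to the highest difference within each panel. Blue is wild type, red is the atr8 mutant, the symbol gives the replicate and the bar the mean of 3 arrays. EXPA4, EXPB3 and EXPA15 lie lower on all 3 mutant arrays than on any wild-type array, and for EXPA9 and EXPA8 mutant replicate 1 lies within the wild-type range.

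EXPA4, an alpha-expansin, showed the largest lower estimate among the brighter members. Its intensity was 2063, 1954 and 1965 in wild-type replicates 1, 2 and 3, and 1485, 530.2 and 392.3 in mutant replicates 1, 2 and 3. The wild-type arrays were close to each other, while mutant replicate 1 lay far above the other mutant arrays, and the genotypes did not overlap. The log2 difference was −1.53 ± 0.49 (SE, n = 3 arrays per genotype), with a 95% interval from −2.74 to −0.32 and a limma adjusted p of 0.261. Only 1.43% of all probe sets had a difference as low. Mutant replicate 1 stood −0.42 from the wild-type mean and replicates 2 and 3 together −2.09. Without mutant replicate 1 EXPA4 passed the test at a limma adjusted p of 0.0419, the 1 member to do so (0.695% of probe sets passed as lower). The mutant arrays left in that fit were replicates 2 and 3, those with the raised actin control ratios.

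EXPA15, also an alpha-expansin, read 1174, 908.3 and 1266 in the wild type and 621.2, 435 and 389.5 in the mutant. The mutant arrays all lay below the lowest wild-type array, and mutant replicate 1 again lay closest to it. The log2 difference was −1.20 ± 0.26 (SE, n = 3), a 2.30-fold lower level of the intensity + 16, with an interval from −1.84 to −0.56 and a limma adjusted p of 0.133. Of the brighter members it had the lowest value on mutant replicate 1, −0.82 from the wild-type mean, against −1.39 on replicates 2 and 3.

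The alpha-expansin genes EXPA8 and EXPA9 resembled each other more than any other of the 153 pairs of members. EXPA9 read 509.2, 541.5 and 536 in the wild type and 523.7, 249 and 173.5 in the mutant. EXPA8 read 292.4, 361.4 and 346.4 in the wild type and 341.3, 126.8 and 93.9 in the mutant. In both, mutant replicate 1 lay among the wild-type arrays and replicates 2 and 3 far below them. The root mean square distance between their patterns, each centred on its own mean, was 0.12 on the log2 scale. EXPA9 had a log2 difference of −0.86 ± 0.40 and EXPA8 of −0.97 ± 0.46 (SE, n = 3; limma adjusted p = 0.406 and 0.41). On mutant replicate 1 alone they stood −0.01 and 0.04 from the wild-type mean, and on replicates 2 and 3 −1.28 and −1.47.

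The root hair expansin genes EXPA7 and EXPA18 had log2 differences of −0.86 ± 0.35 and −0.62 ± 0.30 (SE, n = 3 arrays per genotype). EXPA7, which is needed for normal root hair growth, read 202.7, 312.6 and 252.2 in the wild type and 180.8, 161 and 77.2 in the mutant. All mutant arrays lay below the wild type, replicate 1 only narrowly. The 95% interval of its log2 difference ran from −1.72 to 0.003 (limma adjusted p = 0.356). EXPA18 read 722.7, 547.9 and 601.4 in the wild type and 586.8, 311.3 and 341.8 in the mutant. Here mutant replicate 1 lay within the wild-type range and the other mutant arrays below it. Its interval ran from −1.35 to 0.10 (limma adjusted p = 0.413). On mutant replicate 1 alone EXPA7 stood −0.45 and EXPA18 −0.08 from the wild-type mean.

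The patterns of EXPA7 and EXPA18 over the 6 arrays were not among the most alike. Their root mean square distance was 0.44 on the log2 scale. Around its own mean the pattern of EXPA7 had a root mean square spread of 0.57, and that of EXPA18 0.43. By likeness to EXPA7, EXPA18 came 954th among 13355 genes, and by likeness to EXPA18, EXPA7 came 2539th. The pattern most like that of EXPA7 was that of AT4G25680, at a distance of 0.11, followed by AT2G39980 and AT1G76910. Among members EXPB1 was the closest to EXPA7, at 0.20 and rank 17. The pattern most like that of EXPA18 was that of ndhK, a chloroplast gene for a subunit of the thylakoid NDH complex, at 0.05. UGT85A2, a UDP-glycosyltransferase gene, and AT2G27580 followed. These distances describe 6 arrays that share their material across genes.

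Of the remaining alpha-expansin genes, EXPA20 had a log2 difference of −0.33 ± 0.44, with mutant replicate 1 at 0.42 above the wild-type mean and the other mutant arrays below all wild-type arrays. EXPA16, EXPA21 and EXPA24 were dim. EXPA16 ranged from 3.83 to 192.8 within the wild type alone, so no difference between genotypes was detectable for it. EXPA21 read 3.32 to 17.6 in the wild type and 4.41 to 62.8 in the mutant. EXPA24 read 10.3, 30.4 and 35.5 in the wild type and 88.7, 42 and 61 in the mutant. Its groups did not overlap, and its log2 difference of 0.97 ± 0.36 was the highest of all 18 members (limma adjusted p = 0.323). Mutant replicate 1 was the highest array of both EXPA21 and EXPA24. These genes stand at either end of the row of expansin genes on chromosome 5. The 2 probe sets shared by genes between them, chosen by family name, stood at −0.41 ± 0.63 (EXP26 and EXPA22) and 0.69 ± 0.65 (EXPA25 and EXPA23), with overlapping genotypes.

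**Figure D2:**
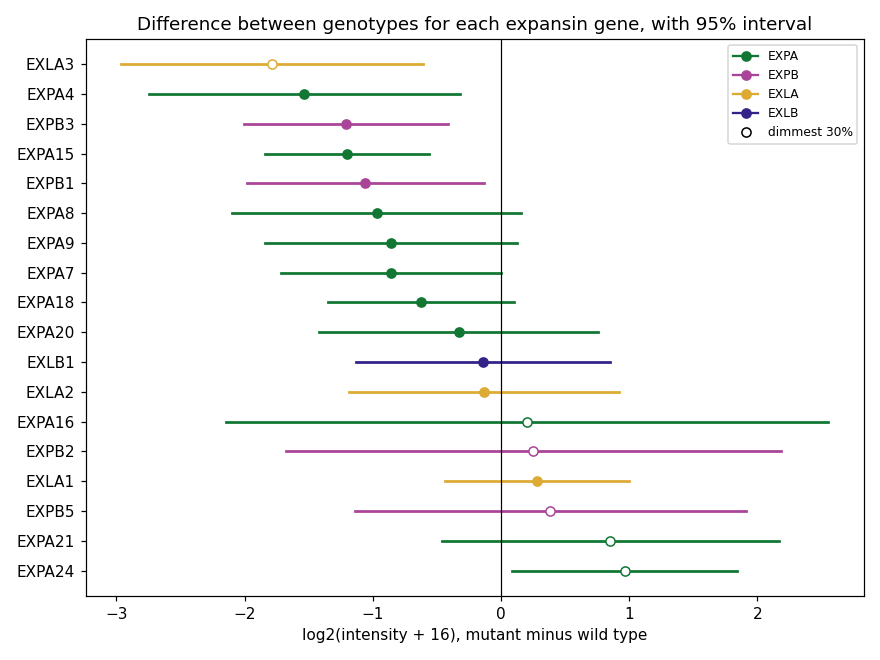
Log2 difference between genotypes, mutant minus wild type, for each expansin gene, with its 95% interval from limma. Colours give the subfamily and open circles mark members in the dimmest 30% of probe sets. The intervals of EXPA4, EXPA15, EXPB1, EXPB3 and EXLA3 lie below 0 and that of EXPA24 lies above 0, before any adjustment for the number of probe sets.

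Of the beta-expansin genes, EXPB3 and EXPB1 stood lower in the mutant and the dim EXPB2 and EXPB5 varied widely. EXPB3 read 1833, 1622 and 1641 in the wild type and 1132, 668.3 and 501 in the mutant. The wild-type arrays were close together and all mutant arrays lay below them, replicates 2 and 3 by the most. The log2 difference was −1.21 ± 0.33 (SE, n = 3), 2.31-fold lower on the intensity + 16, with a limma adjusted p of 0.197. EXPB1 read 226, 397.9 and 218.5 in the wild type and 177.4, 131.4 and 75.4 in the mutant, with a log2 difference of −1.06 ± 0.38 (adjusted p = 0.306). On mutant replicate 1 alone EXPB3 stood −0.58 and EXPB1 −0.57 from the wild-type mean. EXPB2 ranged from 5.86 to 137.3 and EXPB5 from 18.2 to 151.2 within the wild type. Their intervals ran from −1.68 to 2.18 and from −1.14 to 1.91.

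Under a prior variance that was robust and followed the intensity, EXPA15 and EXPB3 passed the test, at adjusted p-values of 0.000368 and 0.00094. This setting called 2.84% of all probe sets as lower in the mutant. Both genes were the only members called under it.

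Among the expansin-like genes, EXLA3 had the lowest estimate of all members. It read 94.8, 37.4 and 106 in the wild type and 4.09, 29.6 and 3.26 in the mutant. Its genotypes did not overlap, and it was low on mutant replicate 1 as well, which stood −2.16 from the wild-type mean, against −1.60 on replicates 2 and 3. The log2 difference was −1.78 ± 0.48 (SE, n = 3; limma adjusted p = 0.197), and its size depends on the 16 added, since 2 mutant arrays read below 16. EXLA1, its neighbour on chromosome 3, read 375.4, 579.2 and 611.8 in the wild type and 469, 708.3 and 731.1 in the mutant, with overlapping genotypes. EXLA2, whose loss is known to alter the response to the fungus Botrytis cinerea, had a log2 difference of −0.13 ± 0.43, with an interval from −1.19 to 0.92. EXLB1 stood at −0.14 ± 0.41. The locus AT4G30380 stood at 0.56 ± 0.79 and was dim.

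The mutant arrays differed among themselves. Mutant replicates 2 and 3 both lay below all wild-type arrays for 10 of the 18 members, where 19.4% of all probe sets showed this. Mutant replicate 1 lay below all wild-type arrays for 6 of the 18 members, against 29.4% of all probe sets. Replicates 2 and 3 both lay below mutant replicate 1 for 12 members, 9 of them EXPA, against 34.6% of all probe sets. The SD between mutant arrays exceeded that between wild-type arrays for 11 of the 12 brighter members, with medians of 0.59 and 0.27 on the log2 scale. Over all probe sets outside the dimmest 30% the mutant SD was the larger for 57.9%, and the medians were 0.30 and 0.24. Among the 6 dim members it was the larger for 2. The raised 3′ to 5′ ratios of control probe sets fell on mutant replicates 2 and 3, and their part in the expansin values was not tested. In whole seedlings, fewer cells of a type and less RNA per cell cannot be told apart.

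**Figure D3:**
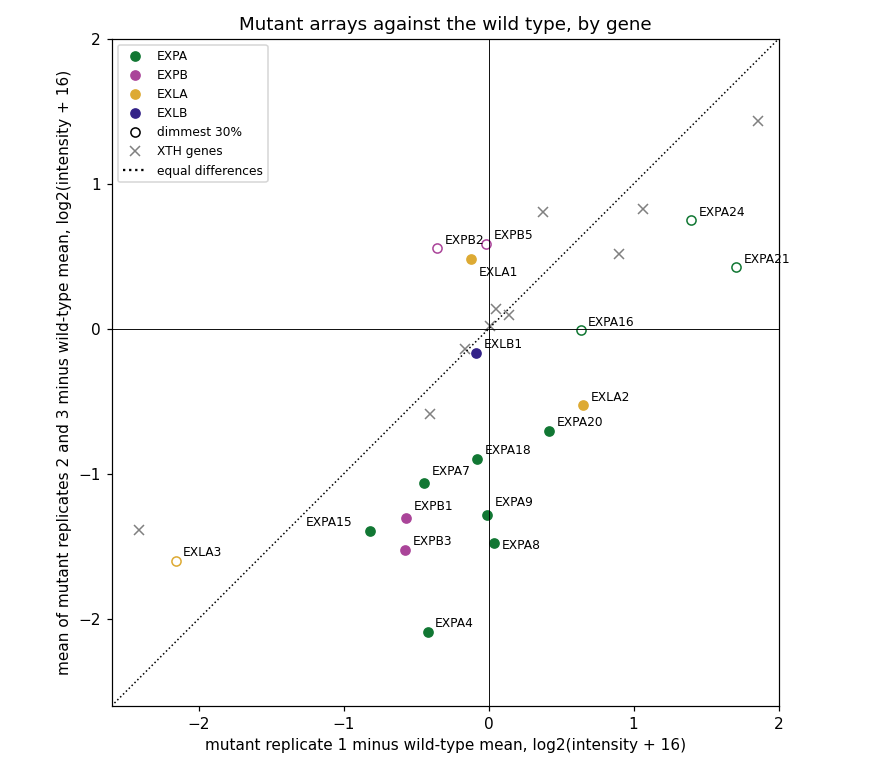
Each point is a gene, with mutant replicate 1 minus the wild-type mean on the horizontal axis and the mean of mutant replicates 2 and 3 minus the wild-type mean on the vertical axis, both in log2(intensity + 16). Circles are expansin genes by subfamily, open in the dimmest 30%, and grey crosses are XTH genes. The brighter EXPA and EXPB genes lie below the dotted line of equal differences, EXPA4 at −0.42 and −2.09.

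Xyloglucan endotransglucosylase/hydrolases (XTH), enzymes that cut and rejoin the xyloglucan chains tethering cellulose, act on the same walls as expansins. Of 33 XTH loci 10 were measured. Of these 3 had lower and 7 higher estimates, the median log2 difference was 0.11, and 0 were called over all probe sets. Of all probe sets, 0.919% were called. At an unadjusted p under 0.05, 2 XTH genes were lower (XTH26 and XTH32), where 6.92% of all probe sets were. By the same measure 2 were higher (XTH29 and XTH18), where 7.11% were. XTH26, known from root hairs, read 266.2, 286.2 and 274.8 in the wild type and 38.7, 76.6 and 118.2 in the mutant. The genotypes were far apart, and mutant replicate 1 was the lowest array, the opposite order to EXPA4 and EXPB3. The log2 difference of XTH26 was −1.73 ± 0.35 (SE, n = 3, limma adjusted p = 0.111). XTH32 also lay lower on all mutant arrays than on any wild-type array, at −0.53 ± 0.19 (limma adjusted p = 0.317). XTH29, a dim gene, stood at 1.57 ± 0.50 (adjusted p = 0.259). XTH18, known from roots, read 1136, 1122 and 1052 in the wild type and 2067, 1726 and 1452 in the mutant, and its relatives XTH19 and XTH20 stood at −0.15 ± 0.19 and 0.01 ± 0.20. On mutant replicates 2 and 3 the XTH genes had a median of 0.12 from the wild-type mean, against −0.80 for the expansin genes. For mutant replicate 1 the medians lay closer together, at 0.10 for the XTH genes and −0.08 for the expansin genes.

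**Figure D4:**
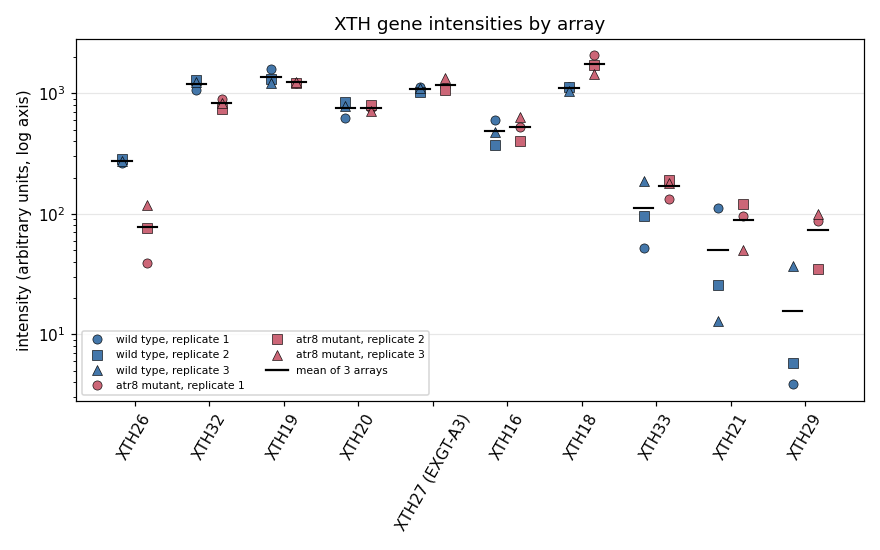
Intensity of the 10 measured XTH genes on every array, on a log axis in arbitrary units, with symbols and bars as for the expansin intensities. XTH26 and XTH32 lie lower on all mutant arrays and XTH18 higher, while XTH19, XTH20 and XTH16 overlap between genotypes.

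Other wall and growth genes on the lists were sparsely measured. Of 30 genes of cellulose synthesis 2 were measured, COB, needed for oriented cell expansion, at −0.29 ± 0.19 and CSLD2, a cellulose synthase-like gene of root hairs, at 0.31 ± 0.22. Of 10 extensin genes 0 were measured. Of 19 upstream growth regulators 1 was measured, the homeobox gene HAT2, at −0.21 ± 0.35. All 3 had overlapping genotypes.

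All 5 measured leaf mesophyll markers had lower estimates in the mutant, where 50.5% of all probe sets did. For 4 of them all mutant arrays, mutant replicate 1 included, lay below the wild type, against 11.0% of all probe sets. Their summed intensity was 71758 to 73239 in the wild type and 36872 to 45187 in the mutant, with mutant replicate 1 the highest of the mutant. LHCB4.2 and LHCB4.1, antenna proteins of photosystem II, stood at −1.56 ± 0.26 and −1.06 ± 0.19 (limma adjusted p = 0.070 and 0.090). LHCB4.3, the marker whose genotypes overlapped, stood at −0.03 ± 0.29. No leaf marker had an intensity near 0. Of 7 guard cell markers 1 was measured, FMA (FAMA), at −0.30 ± 0.19. The part of tissue makeup in the expansin values was not tested.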

How the data were processed

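Per the files, the deposited values are linear intensities between 1 and 47944, with a median of 192.9, 1 per array for each probe set. Their sorted values were identical in all 6 columns, so the authors had quantile normalized them. How probes were summarized and background corrected is not stated in the labels or files used. From 22810 probe sets the Affymetrix controls were removed, and the other 22746 were fitted as log2(intensity + 16) by limma 3.58.1 (R 4.3.3; lmFit, then eBayes) with a term for genotype. The number of arrays limits the precision. P-values were adjusted by Benjamini-Hochberg over all tested probe sets. The test was tested on simulated data. All members were named. From each other list, members past the threshold were named, or otherwise the 2 with the smallest p. XTH16, XTH18, XTH19, XTH20, XTH32, RCA and LHCB4.3 fell outside this rule and were named after their values were seen. For EXPA7 and EXPA18, the 3 genes nearest in pattern were also named. List members were matched by symbol or synonym in RefSeq, and where a gene had several probe sets the brightest stood for it. Symbols PEX, which mostly name peroxisome genes, were left out of the extensin list. Members and lists were chosen with earlier results of these data known. Promoter and protein comparisons planned for the members were not made, since no sequences were used here. The alternatives tried were a replicate block, other normalizations, pseudocounts, filters and variance models, and arrays left out.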

Additional observations from a re-analysis of the deposited data

Results flagged for a closer look

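The 3′ to 5′ signal ratios of control probe sets, which entered no test of the genotypes, stood above the wild-type range on mutant replicates 2 and 3 in both sets of controls on the array. For actin the ratio was 108.5 and 63.5 in the first set, with 11.5 to 16.8 for the wild type, and 28.9 and 19.6 in the second, with 2.17 to 2.66. For GAPDH the ratio was 7.69 and 5.49 in the first set, with 1.35 to 1.44 for the wild type, and 1.75 and 1.7 in the second, with 0.794 to 0.844. For ubiquitin the ratio was 4.33 and 3.82 in the first set, with 2.45 to 3.31 for the wild type, and 2.1 and 2.27 in the second, with 0.717 to 1.02. Mutant replicate 1 stood above the wild-type range for GAPDH only, at 1.51 in the first set and 0.996 in the second, below mutant replicates 2 and 3 in both. With 3 arrays per genotype, no test for a single outlying array was made.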

How the results depend on the processing

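No member was called under 14 of 16 alternatives. EXPA15 and EXPB3 made 2 calls under the robust prior that follows intensity. EXPA4 made 1 without mutant replicate 1, a fit that kept only the mutant arrays with the raised actin control ratios. The cause of these changes was not tested. Leaving out 1 array gave 0 to 1 calls and a median log2 difference of the members of −0.80 to −0.31. The median was −0.08 on mutant replicate 1 alone and −0.86 without the dimmest 30%, where 12 members were tested. With the replicate number as a block 0 members were called and the smallest adjusted p was 0.319. Same-numbered arrays did not deviate together (r = 0.01, 0.01 and 0.005 over all probe sets), so the numbers were not taken as pairs, although each array correlated best with its own number. The sign held under all alternatives for 10 members and turned for 8, none of which was called under any alternative. Of these, EXPA8 came nearest to the threshold, at a limma adjusted p of 0.062 without mutant replicate 1. On mutant replicate 1 alone, where the spread comes from the wild-type arrays only, EXLA1 stood at −0.12, EXLA2 at 0.65, EXPA8 at 0.038, EXPA20 at 0.42, EXPB2 at −0.36 and EXPB5 at −0.015. With single arrays left out, EXLA2 ran from −0.53 to 0.17, EXLB1 from −0.43 to 0.17, EXPA16 from −0.54 to 1.16, EXPB2 from −0.26 to 1.14 and EXPB5 from −0.060 to 1.08. A mean over several probe sets could not be tried, since each member has 1.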
